A study of Mus musculus with 16 samples.

Results

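The Krüppel-like factor (Klf) genes Klf2, Klf4, Klf5, Klf6, Klf7, Klf9, Klf10, Klf11, Klf13 and Klf16 were followed across all 16 RNA sequencing libraries of the series. These 10 genes were taken by name, with earlier results of these data known. The deposited tables list 55385 genes, of which 17222 were tested, and all 10 Klf genes were among those tested.

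Klf proteins are transcription factors with a block of zinc fingers at the C-terminal end that binds GC-rich and CACCC sequences. The family shares this DNA-binding block with the Sp factors and differs mainly in the regions that recruit co-activators or co-repressors. In neurons, members of the family are known as regulators of neurite growth and regeneration and as genes that respond to hormones, stress and electrical activity.

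The cultures were primary hippocampal neurons from newborn C57Bl/6N mice, grown with the glia that such preparations contain. They carried recombinant adeno-associated viruses that express a short hairpin RNA from the U6 promoter and GFP from a chicken β-actin promoter. The hairpin was either Control-shRNA, a control hairpin, or Dnmt3a1-shRNA2, which is directed at Dnmt3a1, the long isoform of a de novo DNA methyltransferase. Cultures were left at baseline (0 h) or exposed for 4 h to bicuculline, a blocker of GABA-A receptors that sets off bursts of action potentials, and each of the 4 groups held 4 libraries from separate neuronal preparations. All groups, the controls included, therefore carried a virus, and the knockdown rests on 1 hairpin sequence.

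Dnmt3a read between 293 and 324 CPM (counts scaled to library size with TMM factors) in the Control-shRNA baseline libraries and between 39.4 and 48.0 CPM in the Dnmt3a1-shRNA2 baseline libraries. With bicuculline the ranges were 311 to 338 and 43.8 to 47.8 CPM. The level left was 14.2% at baseline and 13.9% with bicuculline (exact permutation test on log2 CPM, two-sided, p = 0.0286 for each, n = 4 against 4, the smallest p that this design allows). The counts are summed over the isoforms of the gene, so Dnmt3a1 is not separated from Dnmt3a2. The libraries held between 28912697 and 29586355 counts, and mitochondrial genes took 2.73% to 6.60% of them. The 6 neuronal markers summed to between 4872 and 6474 TPM (the deposited length-scaled unit) over the 16 libraries, against 205 to 461 TPM for 7 astrocyte markers, 80.1 to 187 TPM for 6 oligodendrocyte lineage markers and 29.6 to 75.5 TPM for 6 markers of fibroblasts and mural cells. The 6 microglial and the 7 endothelial markers summed to at most 8.15 and 2.74 TPM. In these bulk measurements a smaller number of cells of a type and less RNA per cell cannot be told apart.

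Measured per transcript length, the family in the Control-shRNA baseline cultures was led by Klf13 at 69.6 ± 3.86 TPM (mean ± SD, n = 4). Klf16, Klf7, Klf6 and Klf9 followed at 49.6 ± 3.33, 43.3 ± 3.27, 40.3 ± 3.91 and 36.4 ± 3.72 TPM, and in this order the ranges of neighbouring genes overlapped. Klf10 stood apart below them at 24.9 ± 2.51 TPM. Klf5 had 8.15 ± 1.09 TPM and Klf11 had 5.45 ± 0.60 TPM, again with no overlap between neighbours. At the low end Klf2 and Klf4, whose ranges overlapped, had 2.24 ± 0.18 and 1.89 ± 0.53 TPM. With bicuculline this order changed. Klf9 at 69.4 ± 7.95 TPM and Klf6 at 68.8 ± 8.68 TPM had the highest means. Their ranges overlapped each other and those of Klf16 and Klf13. Klf4 at 14.0 ± 1.05 TPM overlapped Klf10 at 14.5 ± 1.59 TPM. The 10 genes together summed to 275 to 293 TPM in the Control-shRNA baseline libraries and to 313 to 360 TPM with bicuculline. In the Dnmt3a1-shRNA2 libraries the sums were 251 to 300.1 TPM and 304 to 353 TPM.

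**Figure D1:**
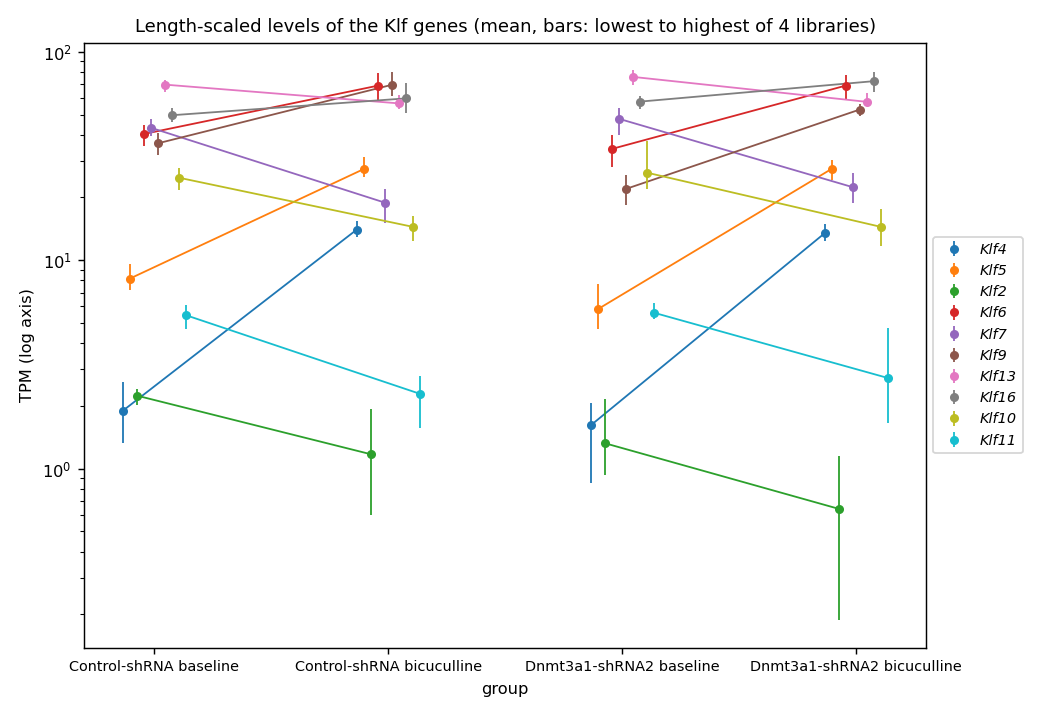
Mean TPM (log axis) of each Klf gene in the 4 groups, with bars from the lowest to the highest of 4 libraries and lines that join baseline to bicuculline within an shRNA. Klf4 goes from 1.89 to 14.0 TPM with bicuculline in Control-shRNA cultures and Klf5 from 8.15 to 27.4 TPM, while Klf7, Klf10 and Klf11 run downward under both shRNAs.

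The first comparison asked how these 10 genes responded to neuronal activity in Control-shRNA cultures. A gene was called at a Benjamini-Hochberg adjusted p under 0.05 over all tested genes in edgeR's quasi-likelihood test together with an absolute log2 fold change over 0.5. By this rule 7 of the 10 Klf genes were called, against 21.9% of all tested genes. The 10 were chosen with earlier results of these data known, so shares set beside all tested genes are a description, not a test. Klf4, Klf5, Klf9 and Klf6 rose, where 10.8% of all tested genes were called higher, and Klf11, Klf7 and Klf10 fell, where 11.1% were called lower. The median absolute log2 fold change was 0.93 over the 10 genes and 0.27 over all tested genes. The baseline and bicuculline libraries did not overlap in CPM for 9 of the 10, against 39.7% of all tested genes, and Klf2 was the exception.

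Among the members known mainly as activators, Klf4 (ENSMUSG00000003032.8, chr4:55527143-55532466 on the minus strand, GRCm38) changed most. Klf4 is a pluripotency factor that restrains axon growth in neurons. Its levels in the 4 Control-shRNA baseline libraries were 1.45, 2.32, 2.40 and 1.88 CPM, and with bicuculline they were 22.6, 21.9, 22.3 and 19.4 CPM. The lowest stimulated library was far above the highest baseline library. The level was 10.6-fold higher (95% interval 8.20 to 13.8, log2 fold change 3.41, standard error 0.18, adjusted p = 1.17e-10), the 80th largest log2 rise among the tested genes. On the log2(TPM + 1) scale, which understates the change of low genes, the Klf4 difference was 2.39.

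Klf5 (ENSMUSG00000005148.8, chr14:99298691-99315036, plus strand), a close relative of Klf4 that promotes proliferation in epithelia, read 11.7, 12.5, 13.7 and 11.4 CPM at baseline. With bicuculline it read 47.3, 47.6, 51.9 and 44.9 CPM. The groups were well separated, with little spread inside either. Klf5 rose 3.88-fold (95% interval 3.32 to 4.54, log2 fold change 1.96, standard error 0.11, adjusted p = 1.84e-10).

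Klf6 and Klf7 are close in sequence, both are known to favour axon growth, and both were already abundant at baseline, yet they moved in opposite directions. Klf6 (ENSMUSG00000000078.7, chr13:5861482-5870394, plus strand) went from 79.4, 64.4, 64.1 and 84.5 CPM to 169, 114, 127 and 130.2 CPM. Klf7 (ENSMUSG00000025959.13, chr1:64029447-64122282, minus strand) went from 159, 134.9, 136 and 162 CPM to 64.7, 84.2, 86.1 and 65.9 CPM. Neither gene had overlapping groups. Klf6 rose 1.85-fold (log2 fold change 0.89, standard error 0.13, adjusted p = 2.95e-05), and Klf7 fell by 49.1% (log2 fold change −0.97, standard error 0.12, adjusted p = 4.50e-06).

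Klf2 (ENSMUSG00000055148.7, chr8:72319033-72321656, plus strand), best known as a flow-responsive factor of endothelial cells, was the member closest to the detection limit. It read 2.01, 1.73, 1.79 and 1.62 CPM at baseline and 0.60, 1.78, 1.24 and 0.67 CPM with bicuculline. The second stimulated library lay within the baseline range, and the other 3 lay below it. Klf2 was not called (log2 fold change −0.74, standard error 0.37, adjusted p = 0.129). Of 25 alternative fits, 3 called Klf2. These were the fit with the replicate number as a block (−0.81, adjusted p = 0.0278), the fit without the second stimulated library (−1.09, adjusted p = 0.0369) and limma on log2(TPM + 1) (−0.62, adjusted p = 0.0270). Over the 25 fits the log2 fold change of Klf2 lay between −1.09 and −0.55.

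Klf9, Klf13 and Klf16 belong to the branch of the family whose members recruit the Sin3a co-repressor. Klf9 (ENSMUSG00000033863.2, chr19:23141226-23168134, plus strand), a target of thyroid hormone and glucocorticoid receptors in the brain, read 80.9, 65.3, 79.3 and 74.4 CPM at baseline and 157, 161, 182 and 160.5 CPM with bicuculline. Every stimulated library was above every baseline library. Klf9 rose 2.20-fold (95% interval 1.95 to 2.49, log2 fold change 1.14, standard error 0.08, adjusted p = 8.80e-09).

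Klf16 (ENSMUSG00000035397.8, chr10:80567124-80577321, minus strand) read 63.7, 63.7, 54.5 and 55.4 CPM at baseline and 75.5, 97.2, 79.7 and 76.8 CPM with bicuculline. The groups did not overlap in CPM and the test was passed (adjusted p = 1.64e-04), but the log2 fold change of 0.47 (standard error 0.08) stayed under the fold threshold. In TPM the Klf16 groups overlapped (45.8 to 53.9 at baseline, 50.9 to 71.0 with bicuculline). Over 26 alternative fits the Klf16 log2 fold change lay between 0.26 and 0.51, with an adjusted p of at most 0.0644. Klf13 (ENSMUSG00000052040.10, chr7:63886351-63938915, minus strand) had the smallest difference of the 10 in the main fit, with 186 to 201 CPM at baseline and 175 to 180.2 CPM with bicuculline (log2 fold change −0.11, 95% interval −0.23 to 0.01, adjusted p = 0.130). Over 26 alternative fits, none of which called Klf13, this value lay between −0.30 and −0.093, with an adjusted p between 2.4e-04 and 0.313.

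Klf10 and Klf11, first described as early genes induced by transforming growth factor β and also Sin3a-binding repressors, both fell. Klf10 (ENSMUSG00000037465.10, chr15:38291463-38300706, minus strand) went from 30.4, 27.9, 28.0 and 25.3 CPM to 16.6, 17.5, 18.8 and 18.0 CPM. Klf11 (ENSMUSG00000020653.12, chr12:24651274-24662789, plus strand) went from 9.61, 8.98, 7.91 and 9.99 CPM to 3.65, 4.79, 4.74 and 4.17 CPM. For each of them all stimulated libraries lay below all baseline libraries. Klf10 fell by 36.5% (log2 fold change −0.65, standard error 0.14, adjusted p = 9.21e-04) and Klf11 by 52.4% (log2 fold change −1.07, standard error 0.16, adjusted p = 2.58e-05).

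**Figure D2:**
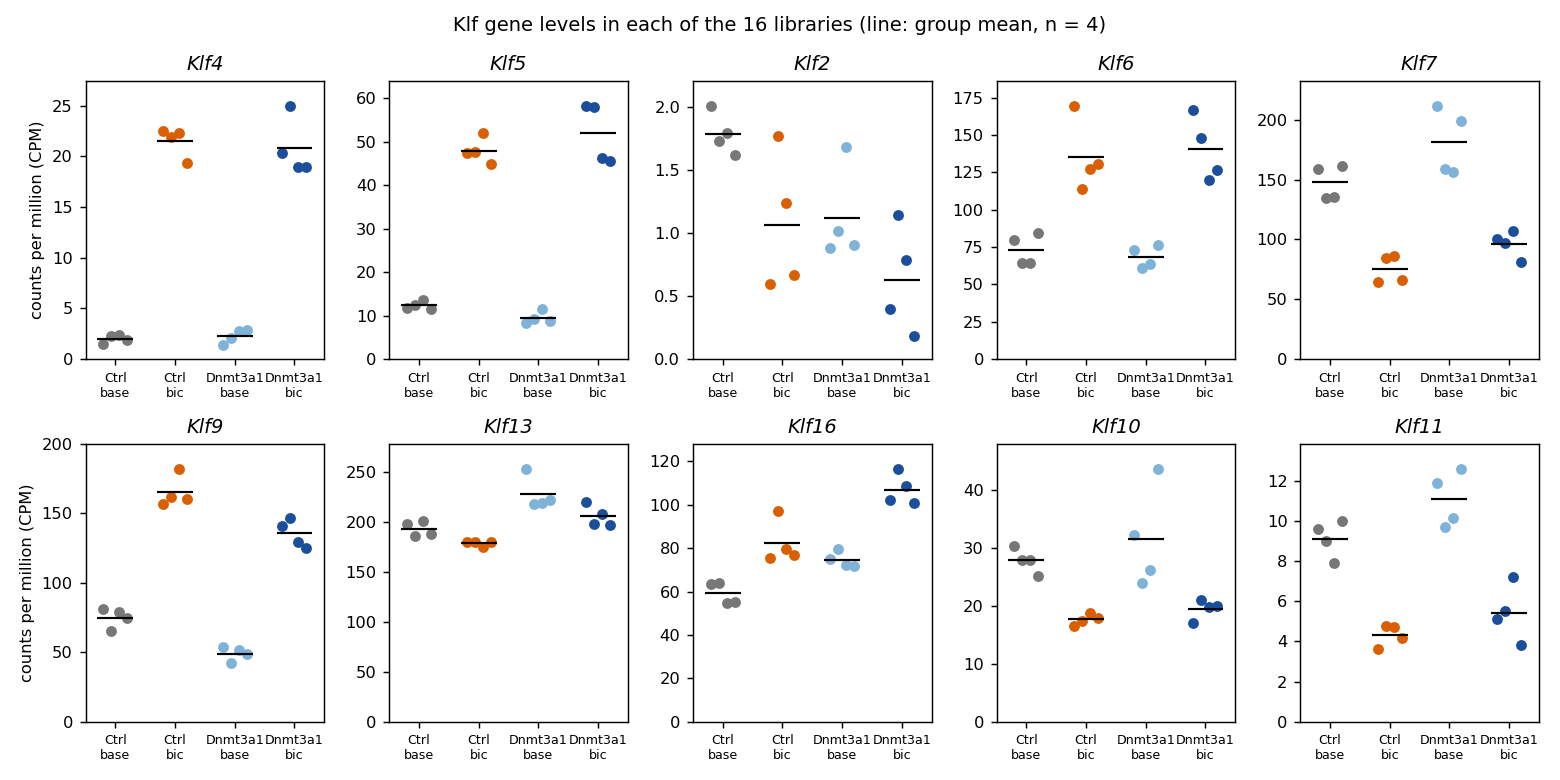
CPM of each Klf gene in every library (points), grouped by shRNA (Ctrl, Control-shRNA, and Dnmt3a1, Dnmt3a1-shRNA2) and condition (base, baseline, and bic, 4 h bicuculline), with the group mean as a line and n = 4. Klf4, Klf5, Klf6 and Klf9 step up and Klf7, Klf10 and Klf11 step down with bicuculline under both shRNAs, and the Klf9 points of the Dnmt3a1-shRNA2 groups lie below those of the matching Control-shRNA groups.

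The promoter is shown for the member with the largest rise, Klf4, the member with the largest fall, Klf11, and Klf9, which was added after its values were seen because it was the 1 member called after the knockdown. Klf5, the second largest rise, has no entry in the promoter table. The sequences are from RefSeq (GRCm38.p6) and stop before the annotated start of the gene. Capitals mark matches, on either strand, to the CRE half-site TGACG, the CRE, the AP-1 site TGANTCA, the CArG box or the MEF2 site. They lie at chr4:55532476-55532725 (minus strand) for Klf4, chr19:23140976-23141225 (plus strand) for Klf9 and chr12:24651121-24651273 (plus strand) for Klf11.
Klf4: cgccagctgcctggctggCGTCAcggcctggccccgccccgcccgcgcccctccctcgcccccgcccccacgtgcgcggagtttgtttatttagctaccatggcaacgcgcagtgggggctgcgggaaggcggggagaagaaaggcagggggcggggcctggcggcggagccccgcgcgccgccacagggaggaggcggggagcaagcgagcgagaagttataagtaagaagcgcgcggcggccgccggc
Klf9: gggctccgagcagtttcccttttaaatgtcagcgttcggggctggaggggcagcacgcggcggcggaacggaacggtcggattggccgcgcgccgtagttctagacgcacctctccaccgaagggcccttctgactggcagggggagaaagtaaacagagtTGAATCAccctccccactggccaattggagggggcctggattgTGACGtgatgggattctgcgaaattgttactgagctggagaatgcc
Klf11: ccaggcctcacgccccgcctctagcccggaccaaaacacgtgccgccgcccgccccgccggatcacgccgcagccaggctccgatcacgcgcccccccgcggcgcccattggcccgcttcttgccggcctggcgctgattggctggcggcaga

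A window of 250 bases before to 50 bases after the start was searched in the 7 members of the promoter table (Klf2, Klf4, Klf6, Klf7, Klf9, Klf11 and Klf13) and in all 32817 promoters. The CRE half-site TGACG was found in 4 of the 7 (Klf2, Klf4, Klf9 and Klf13) and in 20.8% of all promoters. The AP-1 site TGANTCA was in Klf9 alone of the 7 and in 7.81% of all promoters, and the MEF2 site was in Klf2 alone and in 3.19%. The whole CRE, TGACGTCA, which contains the half-site, and the CArG box were in none of the 7 and in 1.79% and 1.63% of all promoters. The GC box GGGCGG was in 6 of the 7, all but Klf9, and in 35.6% of all promoters. The CACCC box was in 4 of the 7 (Klf2, Klf7, Klf9 and Klf13) and in 57.5%. The CpG dinucleotide, a sequence that DNA methyltransferases act on, occurred 40 times in the Klf4 window, 42 times in that of Klf11 and 28 times in that of Klf9. Klf7 had the fewest, at 16. Its window (chr1:64121340-64121639) follows the RefSeq start and lies inside the gene as positioned above. The median over all promoters was 7. No methylation was measured here, and a match is a run of letters, not a bound site.

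The second comparison repeated the stimulation in Dnmt3a1-shRNA2 cultures, with other libraries on both sides. There 8 of the 10 Klf genes were called, against 25.8% of all tested genes. Klf4, Klf5, Klf9, Klf6 and Klf16 rose, where 12.6% of all tested genes were called higher, and Klf11, Klf7 and Klf10 fell, where 13.2% were called lower. The groups did not overlap for 8 of the 10, against 40.4% of all tested genes.

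Klf4 went from 1.37, 2.09, 2.73 and 2.90 CPM to 20.4, 25.0, 19.0 and 19.0 CPM in these cultures. Klf5 went from 8.33, 9.29, 11.5 and 8.82 CPM to 58.1, 58.1, 46.3 and 45.5 CPM. As in the Control-shRNA cultures, both genes were low in all baseline libraries and high in all stimulated ones. The folds were 9.11 for Klf4 (95% interval 7.03 to 11.8, log2 fold change 3.19, adjusted p = 1.68e-10; 2.50 on the log2(TPM + 1) scale) and 5.47 for Klf5 (95% interval 4.67 to 6.42, log2 fold change 2.45, adjusted p = 1.07e-11).

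Klf9 rose 2.76-fold (95% interval 2.44 to 3.13, log2 fold change 1.47, adjusted p = 3.01e-10) from 53.5, 42.3, 52.0 and 48.6 CPM to 141, 147, 129 and 125 CPM. Klf6 rose 2.05-fold (log2 fold change 1.04, adjusted p = 4.31e-06). Klf16 rose from a mean of 74.6 CPM to a mean of 107 CPM, and its log2 fold change of 0.52 (adjusted p = 4.73e-05) was just over the threshold. That call was lost without the second stimulated library (0.47), without the fourth baseline library (0.4998), with library size as the only scaling (0.37) and on the TPM scale (0.32 with either pseudocount).

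Klf11 fell by 51.0% (log2 fold change −1.03, adjusted p = 2.50e-05) and Klf7 by 46.8% (log2 fold change −0.91, adjusted p = 6.94e-06). Klf10 fell by 38.3% (log2 fold change −0.70, adjusted p = 4.34e-04). The fourth baseline library was high for Klf10 at 43.7 CPM, against 24.0 to 32.3 CPM in the other 3, and without it the log2 fold change was −0.499 and Klf10 was not called. Klf13 had a log2 fold change of −0.15 (adjusted p = 0.0410), under the fold threshold. Klf2 read 0.88, 1.01, 1.68 and 0.91 CPM at baseline and 0.40, 1.15, 0.78 and 0.18 CPM with bicuculline, groups that overlap (log2 fold change −0.83, adjusted p = 0.117). Klf2 was called in 2 of the 25 alternative fits here, with the replicate number as a block at −0.87 (adjusted p = 0.0366) and without the second stimulated library at −1.29 (adjusted p = 0.0253), and over the 25 fits the log2 fold change lay between −1.29 and −0.51.

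The third comparison asked what the knockdown did to these genes at rest. In baseline cultures 1 of the 10 Klf genes was called between Dnmt3a1-shRNA2 and Control-shRNA, Klf9, against 5.83% of all tested genes called in either direction and 4.07% called lower. The Klf9 levels above, 65.3 to 80.9 CPM with Control-shRNA and 42.3 to 53.5 CPM with Dnmt3a1-shRNA2, did not overlap. Klf9 was lower by 34.5%, a log2 fold change of −0.61 (95% interval −0.79 to −0.43, standard error 0.08, adjusted p = 8.46e-05). It was called in each of the 16 fits that left out 1 library, where the log2 fold change lay between −0.67 and −0.55.

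At an adjusted p under 0.05 with no fold threshold, 4 of the 10 passed in baseline cultures, against 16.3% of all tested genes. Beside Klf9 these were Klf5 at a log2 fold change of −0.38 (adjusted p = 0.0251), Klf16 at 0.33 (adjusted p = 0.0103) and Klf13 at 0.24 (adjusted p = 0.00851). The groups did not overlap in CPM for Klf9, Klf13 and Klf16, 3 of the 10, against 19.9% of all tested genes. In TPM the ranges of Klf13 (69.1 to 81.6 against 64.2 to 73.4) and Klf16 (53.4 to 61.5 against 45.8 to 53.9) overlapped. Those of Klf9 did not. Over the 26 alternative fits the highest adjusted p was 0.379 for Klf13, 0.225 for Klf16, 0.0832 for Klf5 and 0.00106 for Klf9. For Klf5 1 library of the knockdown, at 11.5 CPM, overlapped the control range. Klf4 differed by 0.18 (95% interval −0.25 to 0.60) and Klf6 by −0.10 (95% interval −0.37 to 0.18) on the log2 scale, and neither passed the test. On the TPM scale the sign of the Klf4 difference was the opposite.

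With bicuculline none of the 10 Klf genes was called between the shRNAs in edgeR, against 5.89% of all tested genes, and none was called with DESeq2 or with voom and limma. At an unadjusted p under 0.05, 4 of the 10 passed, against 31.2% of all tested genes, and the same 4 passed at an adjusted p under 0.05 with no fold threshold, against 17.7% of all tested genes. Klf9 was lower at 125 to 147 CPM, against 157 to 182 CPM in the Control-shRNA libraries, and the ranges did not overlap (log2 fold change −0.28, adjusted p = 0.0239). Klf16 at 100.6 to 116 CPM was above its control range of 75.5 to 97.2 CPM (log2 fold change 0.38, adjusted p = 0.00393), and Klf13 at 197 to 219.8 CPM was above 175 to 180.2 CPM (log2 fold change 0.20, adjusted p = 0.0221). These 3 genes were the ones without overlap in CPM, against 20.9% of all tested genes. Klf7 passed with overlapping groups (log2 fold change 0.36, adjusted p = 0.0480). In TPM the ranges of Klf16 (64.0 to 79.6 against 50.9 to 71.0) and Klf13 (55.5 to 63.7 against 53.2 to 62.2) overlapped, while those of Klf9 did not. Over the 26 alternative fits the highest adjusted p was 0.881 for Klf13, 0.264 for Klf7, 0.108 for Klf16 and 0.0882 for Klf9. Klf5 differed by 0.12 (95% interval −0.09 to 0.33), and Klf4 by −0.05 (95% interval −0.36 to 0.27).

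**Figure D3:**
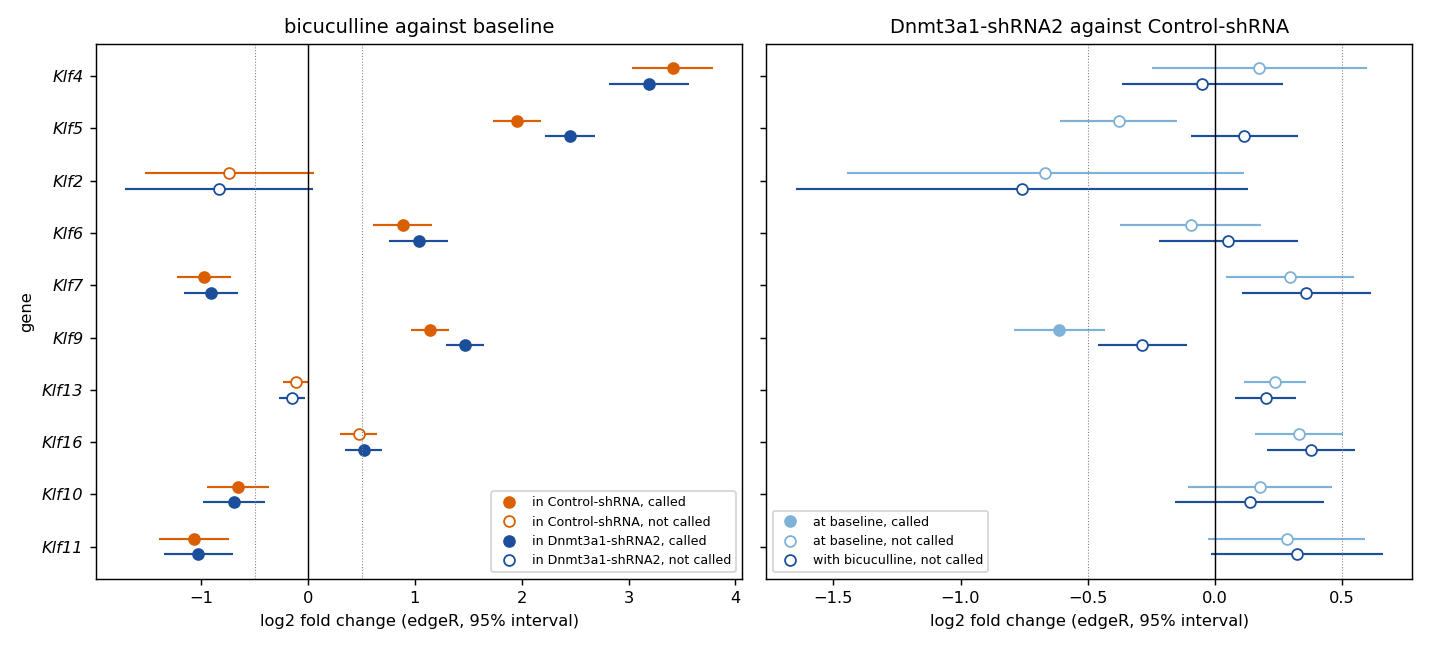
Log2 fold changes of the 10 Klf genes with 95% intervals, for bicuculline against baseline under each shRNA (left) and for Dnmt3a1-shRNA2 against Control-shRNA in each condition (right). Filled points were called and dotted lines mark the fold threshold of 0.5. Klf9 at −0.61 is the only filled point of the right panel.

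The last comparison asked whether the response to bicuculline itself depended on the knockdown. The interaction of shRNA and bicuculline was called for none of the 10 Klf genes and for 0% of all tested genes in edgeR. At an unadjusted p under 0.05 it passed for 2 of the 10, Klf5 and Klf9, and for 852 of the 17222 tested genes. DESeq2 called 17 genes, edgeR with the replicate block 3, edgeR without a filter on low counts 3 and voom with limma 0, and no member was among them. For Klf5 the log2 rise was 1.96 in Control-shRNA and 2.45 in Dnmt3a1-shRNA2 cultures, a difference of 0.50 (95% interval 0.18 to 0.81, adjusted p = 0.731). For Klf9 the rises were 1.14 and 1.47, a difference of 0.33 (95% interval 0.08 to 0.58, adjusted p = 0.877). The intervals of these differences are not adjusted for the number of genes. For Klf4 the difference was −0.22 (95% interval −0.75 to 0.30), so a change of the response of about that size could not be detected at this spread.

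The marker genes of other cells gave the following values beside these results. With bicuculline in Control-shRNA cultures, 1 of 7 astrocyte markers was called, Sox9, which rose by 1.09 on the log2 scale, and 2 of 6 markers of fibroblasts and mural cells, Pdgfrb and Col1a2, which rose by 0.56 and 0.55. None of the microglial, endothelial and oligodendrocyte markers was called there, where 21.9% of all tested genes were called in either direction. Of the 6 neuronal markers Tubb3 was called lower (log2 fold change −0.77), while the log2 fold changes of the other 5 lay between 0.16 and 0.36, under the fold threshold, with stimulated libraries above all baseline libraries. The endothelial markers summed to 1.22 to 1.58 TPM at baseline and 1.19 to 1.56 TPM with bicuculline in Control-shRNA cultures. Klf4 had 1.33 to 2.60 TPM at baseline and 13.0 to 15.4 TPM with bicuculline in the same libraries. The part of endothelial or other cells in the Klf4 rise was not tested. After the knockdown the microglial markers summed to 2.26 to 4.88 TPM at baseline, against 4.71 to 8.15 TPM in the controls, and Csf1r was called lower (log2 fold change −0.66). Pdgfrb (0.75) and Tubb3 (0.51) were called higher, by the log2 fold changes in parentheses. The endothelial marker Tek was also called higher, with 8 to 14 counts a library against 5 to 6 in the controls. It passed the low-count filter only through the Dnmt3a1-shRNA2 libraries, so nothing is read from that call. The astrocyte markers summed to 232 to 461 TPM against 230 to 382 TPM. None of the 7 was called, but 6 of the 7 were higher and 4 passed at an unadjusted p under 0.05, against 28.8% of all tested genes. The median log2 fold change of the 7 was 0.41, against 0.01 over all tested genes. Klf9 was lower in the same libraries, and the part of such cells in the differences of Klf9 and Klf2 was not tested.

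With bicuculline the knockdown called Lum, a fibroblast marker, higher (log2 fold change 0.67) and Csf1r lower (−0.75). The median log2 fold change of the 3 tested microglial markers was −0.017. Tek was called higher, with 5 to 13 counts a library against 2 to 4. It passed the low-count filter only through the Dnmt3a1-shRNA2 libraries, so nothing is read from that call. None of the 7 astrocyte markers was called, but 3 passed at an unadjusted p under 0.05, against 31.2% of all tested genes. The median log2 fold change of the 7 was 0.42, against −0.0057 over all tested genes. Bicuculline in Dnmt3a1-shRNA2 cultures called Sox9 (1.08) and Col1a2 (0.56) higher and Tubb3 (−1.12) lower. The endothelial marker Flt1 was called higher there, with 11 to 18 counts a library against 4 to 10 at baseline. No Dnmt3a1-shRNA2 baseline library reached the level that the low-count filter asks for, so nothing is read from that call. The part of these cells in the Klf differences of the same contrasts was not tested.

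Over all 16 libraries, the tested genes outside the Klf and Sp families whose log2 CPM followed Klf4 most closely were Sertad1, a cell cycle regulator (r = 0.992), Ccn1, a secreted matrix protein (r = 0.988), and the gene of the microRNA Mir132 (r = 0.988). Those that followed Klf11 most closely were St6galnac5, a sialyltransferase (r = 0.973), D630045J12Rik (r = 0.972) and Sema4d, a semaphorin (r = 0.966). These Pearson coefficients describe the 16 libraries and mostly reflect the step between baseline and bicuculline that the genes share. Sertad1 had a mean of 3.16 CPM at baseline and 40.3 CPM with bicuculline in Control-shRNA cultures, and Sema4d had 47.3 and 18.3 CPM. After the group means were removed, the coefficients of the 45 pairs of Klf genes lay between −0.58, for Klf4 and Klf13, and 0.82, for Klf7 and Klf11, with a median of 0.14 over the same 16 libraries.

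Of the other 16 Klf and Sp genes, 12 were tested. With bicuculline in Control-shRNA cultures Klf14 and Sp8 were called, both higher, and Sp7 was seen almost only with bicuculline. Sp7, a factor of bone cells, was nearly undetected at baseline, with 1 to 4 counts a library, and reached 231 to 469 counts a library with bicuculline, a mean of 12.2 CPM. Sp7 passed the low-count filter only through its stimulated libraries and so had to differ, and it is given as counts with no test. Klf14, a close relative of Klf16, went from a mean of 0.96 CPM to 6.34 CPM (log2 fold change 2.72, adjusted p = 1.61e-09). Sp8 rose by 0.55 on the log2 scale (adjusted p = 0.0330). The Sp1, Klf3, Klf8, Klf12 and Klf15 genes were among the 9 that were not called. In Dnmt3a1-shRNA2 cultures Sp7 went from 2 to 6 counts a library to 235 to 320, Klf14 and Sp8 were again called higher and Sp3 was called lower (log2 fold change −0.56, adjusted p = 1.86e-05). Klf1, Klf17, Sp5 and Sp6 had at most 13 counts in any library and were not tested.

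After the knockdown, Klf8 was called higher at baseline, at a mean of 26.2 CPM against 17.7 CPM (log2 fold change 0.56, adjusted p = 0.00248). It was also called higher with bicuculline, at 23.1 CPM against 16.3 CPM (log2 fold change 0.50, adjusted p = 0.00582). Klf14 was called higher with bicuculline, at 9.10 CPM against 6.34 CPM (log2 fold change 0.52, adjusted p = 0.0209). The 2 conditions use separate libraries. They come from 1 fit with a shared estimate of the spread, and same-numbered libraries of the 2 conditions were positively correlated. The 2 knockdown contrasts are therefore not taken as independent. The contrasts of shRNA and of bicuculline share groups and are not independent of each other either.

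The 16 genes of pathways known to act upstream of the family were also followed, the MEK5 and ERK5 kinases with their MEF2 targets, serum response factor with its partner Elk1, the glucocorticoid and thyroid hormone receptors, and the transforming growth factor β pathway. In Control-shRNA cultures 2 rose and 3 fell with bicuculline, against 10.8% of all tested genes called higher and 11.1% called lower. Tgfb2, a ligand of the transforming growth factor β pathway, rose by 1.74 on the log2 scale, from a mean of 22.1 to 73.6 CPM (adjusted p = 1.55e-09), and Srf, which encodes serum response factor, rose by 0.76 (adjusted p = 1.51e-06). Mapk7, which encodes ERK5, fell by 0.59 (adjusted p = 3.12e-04), Elk1 fell by 0.58 (adjusted p = 1.68e-06) and Nr3c1, the glucocorticoid receptor, fell by 0.60 (adjusted p = 6.94e-06).

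In Dnmt3a1-shRNA2 cultures the same comparison called Tgfb2 (log2 fold change 1.62), Tgfb1 (0.65) and Smad3 (0.55) higher and Elk1 (−0.77) and Mapk7 (−0.70) lower. Between the shRNAs, Mef2b had 4 to 5 counts a library against 10 to 15 in the controls at baseline, and 5 to 8 against 9 to 23 with bicuculline. It was called lower in both conditions, but it passed the low-count filter only through the control libraries, so nothing is read from these calls. Thra, which encodes the thyroid hormone receptor α that regulates Klf9, was higher in both conditions with no overlap of libraries. At baseline it had a mean of 1793 CPM against 1279 CPM (log2 fold change 0.49, adjusted p = 1.89e-05), just under the fold threshold, and with bicuculline it was called, at 2106 CPM against 1486 CPM (log2 fold change 0.50, adjusted p = 1.11e-05).

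The 10 co-factors and degradation partners include Sin3a, Hdac1, Hdac2, Ep300 and the ubiquitin ligases Wwp1 and Fbxw7. None was called with bicuculline in Control-shRNA cultures, against 21.9% of all tested genes called in either direction. In Dnmt3a1-shRNA2 cultures Hdac2 was called lower (log2 fold change −0.63, adjusted p = 1.07e-05), where 13.2% of all tested genes were called lower. Neither knockdown contrast called any of the 10, against 5.83% of all tested genes at baseline and 5.89% with bicuculline. Of 8 genes reported as Klf targets in other tissues, 3 rose with bicuculline in Control-shRNA cultures, against 10.8% of all tested genes called higher. Smad7, an inhibitor of transforming growth factor β signalling, went from a mean of 7.66 to 34.1 CPM (log2 fold change 2.15, adjusted p = 2.81e-12). Cdkn1a, the cell cycle inhibitor p21, went from 114 to 268 CPM (log2 fold change 1.24, adjusted p = 5.19e-05), and Thbd, thrombomodulin, from 1.16 to 2.75 CPM (log2 fold change 1.25, adjusted p = 0.00164). In Dnmt3a1-shRNA2 cultures the same 3 were called higher, at log2 fold changes of 1.98, 1.25 and 0.92. Maoa, which encodes monoamine oxidase A, was called in addition at 0.50, where 12.6% of all tested genes were called higher. None of the 8 was called between the shRNAs in either condition, against 5.83% of all tested genes at baseline and 5.89% with bicuculline.

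**Figure D4:**
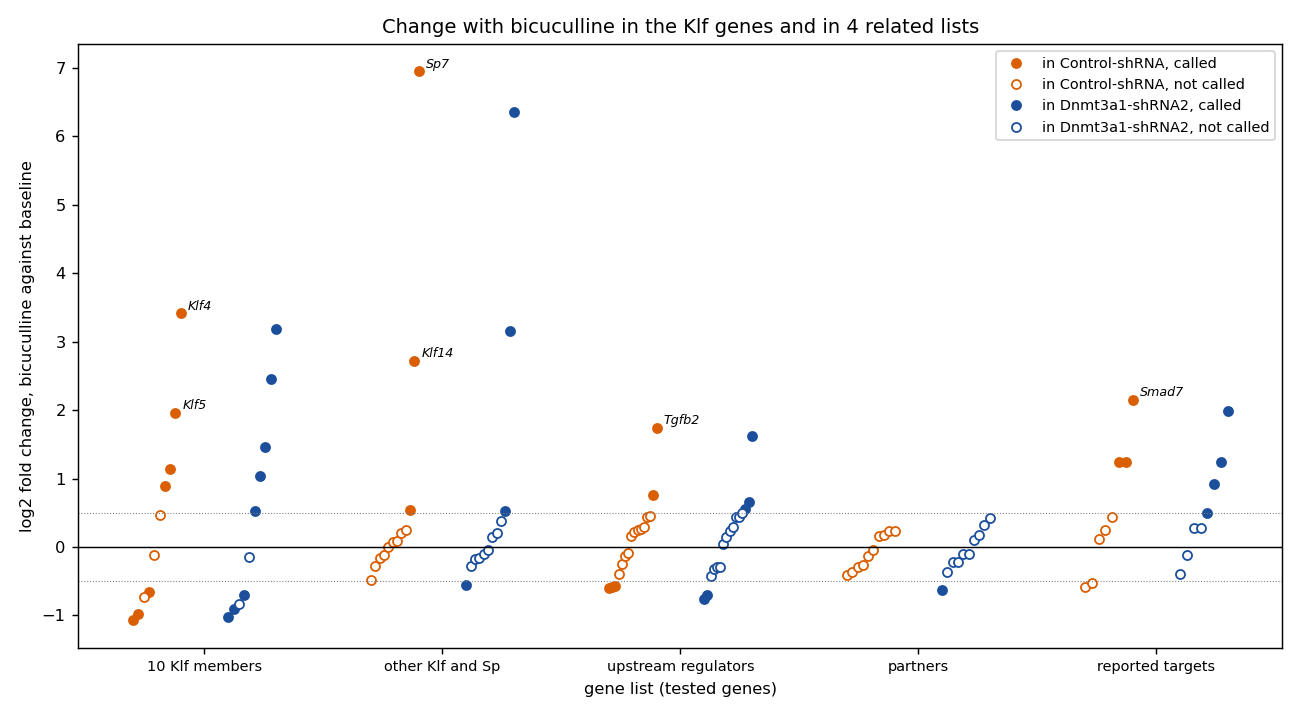
Log2 fold change with bicuculline (vertical axis) of every tested gene in the 10 Klf genes and 4 related lists, in Control-shRNA and Dnmt3a1-shRNA2 cultures, with filled points for called genes and dotted lines at the threshold of 0.5. Klf4 and Klf14 are the highest points in Control-shRNA cultures beside Sp7. Sp7 passed the low-count filter only through its stimulated libraries and so had to differ, and nothing is read from its points. The partners lie within the dotted lines in Control-shRNA cultures.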

How the data were processed

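RNA of 16 libraries, 4 for each combination of shRNA and condition, was sequenced as paired-end reads, and groups were taken from the sample labels, which call the hairpins shControl and shDnmt3a1. The authors trimmed reads (Trim Galore 0.6.4) and quantified them with kallisto on GRCm38.p6. They deposited an estimated count per gene, summed over transcripts and not scaled. A deposited TPM value per gene is scaled for transcript length and library total.

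Estimated counts were rounded, scaled by TMM (factors 0.87 to 1.12), filtered with filterByExpr and fitted in 1 quasi-likelihood model of the 4 groups in edgeR 4.0.16 (R 4.3.3), with Benjamini-Hochberg adjustment over 17222 genes. CPM values carry the TMM scaling. The log2 CPM values used for correlations, and the CPM of the genes most like Klf4 or Klf11, carry a prior count of 1. DESeq2 1.42.0, voom with limma 3.58.1, other scalings and filters, TPM, a replicate block and leaving out each library were alternatives. The code was tested on simulated data. The Klf genes and the lists were chosen with earlier results of these data known. The rule named all members, Dnmt3a, every list gene called in a contrast, and the 3 genes most like the member with the largest rise and fall. Genes beyond that rule, those given as not tested or not called, were named after their values were seen.

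Same-numbered libraries were checked for pairing. The correlation of their deviations from the group means was over 0.1 for each of the 4 numbers in the bicuculline contrast of Control-shRNA (0.12 to 0.19) and in the knockdown contrast at baseline (0.18 to 0.33), and was 0.04 and 0.06 for number 4 in the other 2 contrasts. Numbers 1 to 3 gave 0.11 to 0.35 in the knockdown contrast with bicuculline and 0.11 to 0.30 in the bicuculline contrast of Dnmt3a1-shRNA2. Libraries with different numbers ranged from −0.22 to 0.22 in the bicuculline contrast of Control-shRNA and from −0.26 to 0.19 in the knockdown contrast at baseline. The ranges were −0.36 to 0.27 in the knockdown contrast with bicuculline and −0.27 to 0.16 in the bicuculline contrast of Dnmt3a1-shRNA2. No pair of libraries of a group agreed within sampling noise. Gene positions are from GENCODE M21, and promoters from a RefSeq table. Whether the counting kept strand is not given in the sources used here. Of the antisense genes that overlap Klf7 and Klf13, the 3 listed in the files had at most 4 counts in a library, and Gm26649 was not analysed here.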

Additional observations from a re-analysis of the deposited data

Results flagged for a closer look

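In 40 sets of 4 libraries, 10 genes in 4 groups, 3 held a library that stood far from the other 3 by Dixon's criterion, where chance gives about 1 in 20. Klf2 was high in Dnmt3a1-shRNA2 baseline replicate 3, at 1.68 CPM against 0.88 to 1.01 CPM in the others. Klf13 was high in Dnmt3a1-shRNA2 baseline replicate 1, at 253 CPM against 218 to 222 CPM. Klf13 was also low in Control-shRNA bicuculline replicate 3, at 175 CPM against 179.6 to 180.2 CPM, a gap that is small beside the level. No cause was tested.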

How the results depend on the processing

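The 7 Klf members called with bicuculline in Control-shRNA cultures and the 1 called after the knockdown at baseline, Klf9, were called in every alternative test and scaling and in every fit without 1 library, but not at every fold threshold. With an absolute log2 fold change over 1, bicuculline called 4 members in Control-shRNA and 5 in Dnmt3a1-shRNA2 cultures, against 1378 and 1681 of the 17222 tested genes. The knockdown called 0 members at that threshold, against 1.02% of all tested genes at baseline and 1.07% with bicuculline. With no fold threshold the knockdown called 4 members at baseline and 4 with bicuculline, against 16.3% and 17.7% of all tested genes. Leaving out 1 library gave 7 to 8 members called with bicuculline in Control-shRNA cultures, 6 to 8 in Dnmt3a1-shRNA2 cultures, 1 for the knockdown at baseline and 0 with bicuculline. With the replicate number as a block, 8 and 9 members were called with bicuculline, against 23.1% and 26.8% of all tested genes, Klf2 in addition in both. The block gave 1 and 0 members for the knockdown at baseline and with bicuculline, against 7.46% and 7.77% of all tested genes. The block changed no other call. With library size as the only scaling, the median of all genes moved to −0.15 with bicuculline and −0.16 in Dnmt3a1-shRNA2 cultures. Signs turned among values that were not called. Klf6 after the knockdown with bicuculline was −0.019 with library size only. On the TPM scale with a pseudocount of 1 and of 0.1, Klf4 after the knockdown at baseline was −0.16 and −0.25, Klf10 with bicuculline −0.0091 and −0.010, and the interaction of Klf4 0.11 and 0.20, while that of Klf2 was 0.11 with a pseudocount of 1. Without 1 library, Klf6 after the knockdown with bicuculline ranged from −0.043 to 0.17 and Klf10 at baseline from −0.020 to 0.29. The interactions ranged from −0.55 to 0.26 for Klf2, −0.15 to 0.16 for Klf10, −0.13 to 0.17 for Klf11, −0.071 to 0.017 for Klf13 and −0.0031 to 0.15 for Klf7. The cause was not tested. Restricting promoters to the 250 bases before the start changed no motif count of the members.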
